A study of Mus musculus with 24 samples.

Results

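The difference described here is that between the effect of indole-3-acetic acid (IAA, an auxin) on RNA levels in embryoid bodies (EB) on day 4 and its effect on day 3. It was formed per gene on log2 values as EBd4 IAA minus EBd4 Dox, less EBd3 IAA minus EBd3 Dox, from 12 of the 24 samples of the series. All samples are total RNA of V6.5, a mouse embryonic stem cell line, carrying a BRD2 degron, a tag that lets auxin trigger removal of the BRD2 protein. The 4 groups, with 3 libraries each, were EBd4 IAA, EBd4 Dox, EBd3 IAA and EBd3 Dox. Every group received doxycycline (Dox, 1 µg/ml) as an 18 h pre-treatment, and the IAA groups then received 500 µM IAA for 24 h. EB were formed in medium without leukaemia inhibitory factor (LIF). When the IAA was added during EB culture, what Dox switches on and how many clones carry the degron are not in the labels. Nor do they say that replicates came from different cultures, so each p-value reflects the scatter among these libraries and nothing wider.

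BRD2 belongs to the BET family, whose bromodomains bind acetylated histones and whose members help RNA polymerase II to start and to elongate transcripts. In EB, cells leave the naive pluripotent state, pass through an epiblast-like state and then switch on genes of the primitive streak, the structure from which mesoderm and endoderm arise in the embryo. Nodal, Wnt and FGF signals drive that step, and each of these pathways induces its own feedback inhibitors. Only the RNA of such genes was measured here, and pathway activity itself was not.

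Levels are size-factor-normalized counts per library, called normalized counts below. Effects are log2 differences of IAA over Dox on log2(normalized count + 1) ± SE from 1 limma fit over the 12 libraries, and a call is an adjusted p below 0.05 over the 21388 genes tested. "Higher" and "lower" differences are those of the EBd4 effect relative to the EBd3 effect. Library depth was 7819522 to 10598075 reads. In EBd4 every IAA library was deeper (9007143 to 10598075 reads) than every Dox library (7941180 to 8120480), and in EBd3 the ranges overlapped (7819522 to 9416260 with IAA, 8353587 to 9371177 with Dox). The mitochondrial share of reads was higher in every EBd3 IAA library (1.25% to 1.26%) than in every EBd3 Dox library (1.14% to 1.19%), and in EBd4 it ran from 1.16% to 1.20% with IAA and from 1.19% to 1.29% with Dox. Fewer genes were detected in every EBd3 IAA library (22270 to 22907) than in every EBd3 Dox library (23138 to 23446). In EBd4 more were detected with IAA (22866 to 22932) than with Dox (22045 to 22372). Among the 5347 genes of lowest level the median difference was 0.20, against 0.01 over all genes. The part of depth, genes detected and mitochondrial share in the differences was not tested beyond thinning all libraries to the smallest depth. Thinning gave 476 called differences in place of 499. Within the 4 groups, EBd4 IAA libraries 1 and 3 were the most unlike pair, with a chi-square per degree of freedom of 5.35 over genes, against 1.26 to 3.68 for the other pairs, and results that rest on one of them are given with and without it. In bulk RNA, fewer cells of a type and less RNA per cell cannot be told apart.

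The IAA effect differed between the days for 499 of the 21388 genes (2.33%). It was higher on day 4 for 299 (1.40%) and lower for 200 (0.935%), and 49 of the higher and 13 of the lower ones differed at least 2-fold. Within the days, IAA changed 2750 genes in EBd4 (12.9%; 1261 or 5.90% rose and 1489 or 6.96% fell) and 1838 in EBd3 (8.59%; 698 or 3.26% rose and 1140 or 5.33% fell). Among the 299 higher differences, 159 rose in EBd4 without a call in EBd3, 82 fell in EBd3 without a call in EBd4, 25 rose in EBd4 and fell in EBd3, 17 fell on both days and less on day 4, and 3 rose on both. The other 13 had no call within either day. Among the 200 lower differences, 124 fell in EBd4 alone, 54 rose in EBd3 alone, 9 fell in EBd4 and rose in EBd3, 2 fell on both days, and 11 had no call within a day. A call on 1 day and none on the other counts here only where the difference itself was called. Leaving out 1 library moved the count of 499 by over 1.5 times in 7 of 12 cases: to 867 without EBd4 IAA 3, 267 without EBd4 IAA 2, 196 without EBd4 Dox 1, 265 without EBd4 Dox 2, 246 without EBd3 IAA 1, 211 without EBd3 Dox 1 and 266 without EBd3 Dox 2. All 24 libraries of the series in 1 fit gave 1109. Within EBd4, 1793 genes were called without EBd4 IAA 2 and 1669 without EBd4 Dox 1. Within EBd3, 1174 were called without EBd3 IAA 1, 1197 without EBd3 IAA 2, 1097 without EBd3 Dox 1, 1071 without EBd3 Dox 2 and 1209 without EBd3 Dox 3.

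**Figure D1:**
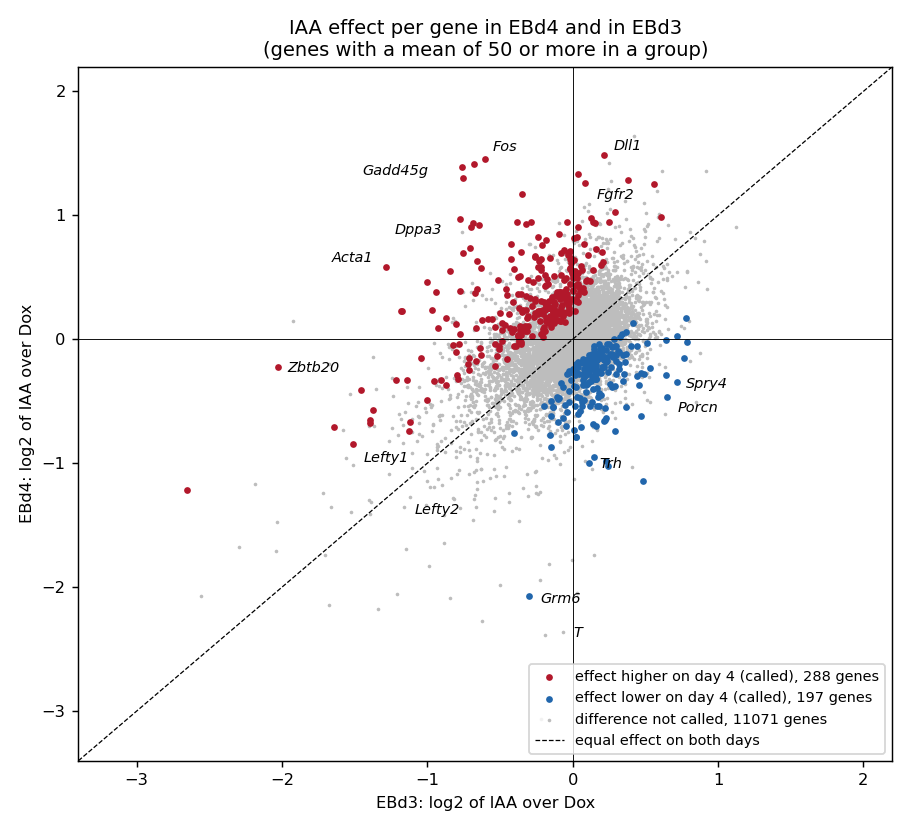
IAA effect per gene (log2 of IAA over Dox) in EBd4 on the vertical axis and in EBd3 on the horizontal axis, for the 11556 genes with a mean of at least 50 normalized counts in a group. Red and blue points are the 485 of them whose difference was called; they lie away from the dashed line of equal effects, and Gadd45g, Fos and Dppa3 stand above 0 on day 4 and below it on day 3.

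Most genes that IAA changed on both days changed the same way. Of 707 genes called on both days, 673 had the same sign (441 fell, 232 rose) and 34 had opposite signs. All 34 were called for the difference, which 2 opposite calls in the same fit almost ensure. Across the 11556 genes with a mean of at least 50 in a group, the effects of the 2 days had a Pearson correlation of 0.461. Genes are not independent replicates, the days share no library, and both effects come from values scaled together, so the correlation is a description.

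A set of 6 genes with the largest differences among those of opposite sign was led by Gadd45g, a small stress-response gene of the growth arrest and DNA damage family (chromosome 13, 51846678 to 51848468; mm10 positions here and below are those of GENCODE M21). Gadd45g had normalized counts of 126, 161 and 160.2 in EBd4 IAA libraries, against 53.5, 54.8 and 56.7 in EBd4 Dox libraries. It had 85.2, 127 and 91.3 in EBd3 IAA libraries, against 160.3, 165 and 154 in EBd3 Dox libraries. All IAA libraries were above all Dox libraries on day 4 and below all of them on day 3. Gadd45g rose by 1.41 ± 0.14 in EBd4 and its EBd3 effect was -0.68 ± 0.14, a difference of 2.09 ± 0.20 (limma, adjusted p = 4.97e-06). The EBd3 call of Gadd45g was lost when all 24 libraries were fitted together. In Dox libraries Gadd45g was lower on day 4 than on day 3, and in IAA libraries the days overlapped.

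Dppa3, which encodes a protein of the naive state and of germ cells that protects DNA methylation in the early embryo, followed the same order (chromosome 6, 122626410 to 122630272). It had 120.3, 73.8 and 58.6 in EBd4 IAA libraries, against 30.6, 44.9 and 49.1 in EBd4 Dox libraries. On day 3, Dppa3 had 38.7, 50.9 and 46.7 in EBd3 IAA libraries, against 84.3, 84.1 and 66.9 in EBd3 Dox libraries. Again no IAA library overlapped a Dox library within either day, with effects of 0.97 ± 0.22 in EBd4 and -0.77 ± 0.22 in EBd3 (difference 1.74 ± 0.31, adjusted p = 0.00326). The EBd3 call of Dppa3 was lost with thinned reads and with the replicate number as a block within the day. Triml1, of the tripartite motif family (chromosome 8, 43129807 to 43141486), had 159, 119 and 102 in EBd4 IAA libraries, against 61.1, 71.0 and 94.4 in EBd4 Dox libraries. On day 3, Triml1 had 172, 152 and 177 in EBd3 IAA libraries, against 293, 296 and 231 in EBd3 Dox libraries. Its groups were also separate on both days, and its difference was 1.44 ± 0.22 (adjusted p = 0.000754).

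The other members of this set were AU018091 (chromosome 7, 3154658 to 3169203), Tnnt1, the slow skeletal muscle troponin T (chromosome 7, 4504570 to 4516382), and Zfy1, a zinc finger gene of the Y chromosome (chromosome Y, 725128 to 797409). Their differences were 2.06 ± 0.29, 1.61 ± 0.28 and 1.45 ± 0.28 (limma, adjusted p = 0.000317, 0.00211 and 0.00514). Each had its 3 EBd4 IAA libraries above its 3 EBd4 Dox libraries and its 3 EBd3 IAA libraries below its 3 EBd3 Dox libraries. Reads of Zfy1 may be shared with its near copy Zfy2, so its level is uncertain. For all 6 genes the difference was called under each of the 24 alternatives. The EBd3 call was lost for Dppa3 (adjusted p 0.0501 to 0.135 without EBd3 IAA 1 or 3 or EBd3 Dox 1 or 2) and AU018091 (adjusted p 0.0569 to 0.126 without EBd3 IAA 1, 2 or 3 or EBd3 Dox 1 or 3). It was also lost for Tnnt1 (adjusted p 0.0561 to 0.113 without EBd3 IAA 1 or 2 or EBd3 Dox 1 or 2) and Zfy1 (adjusted p 0.0501 to 0.0918 without EBd3 IAA 1 or 3 or EBd3 Dox 1). The EBd4 call of Zfy1 was lost too (adjusted p 0.0854 to 0.13 without EBd4 IAA 1 or EBd4 Dox 1).

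The other genes among the 12 largest higher differences were called on 1 day alone, as rising in EBd4 or as falling in EBd3. Fos, a subunit of the AP-1 transcription factor (chromosome 12, 85473890 to 85477273), had 228, 341 and 555 in EBd4 IAA libraries, against 90.4, 145 and 157 in EBd4 Dox libraries. In EBd3 it had 23.2, 24.9 and 54.1 in EBd3 IAA libraries, against 64.1, 31.9 and 55.2 in EBd3 Dox libraries. The day 4 groups were apart and the day 3 groups overlapped: Fos rose by 1.46 ± 0.29 in EBd4 and had an effect of -0.60 ± 0.29 in EBd3, which was not called (difference 2.06 ± 0.41, adjusted p = 0.00752). The EBd3 effect of Fos passed the threshold with 1 library left out (adjusted p 0.0313 without EBd3 IAA 3). Myl3, a myosin light chain of heart and slow muscle, rose to 73.1 ± 3.15 with IAA in EBd4, against 28.9 ± 12.7 with Dox (mean ± SD, n = 3 each), and its EBd3 groups overlapped (difference 2.16 ± 0.49). Aire, the autoimmune regulator of thymic epithelium, Gpat2, a glycerol-3-phosphate acyltransferase, and Morc1, which silences transposons in male germ cells, also rose in EBd4, by 1.17 ± 0.26, 0.94 ± 0.23 and 0.92 ± 0.22. In EBd3, every IAA library of Gpat2 and of Morc1 was below every Dox library. Their EBd3 effects of -0.69 ± 0.23 and -0.64 ± 0.22 were not called. Both passed by edgeR and with all 24 libraries in 1 fit, and Morc1 also by DESeq2. Leaving out 1 library did so for Gpat2 (adjusted p 0.0323 to 0.0345 without EBd4 IAA 1 or EBd4 Dox 3) and Morc1 (adjusted p 0.025 to 0.0441 without EBd4 Dox 1 or 3). The difference of Myl3 lost its call without EBd3 Dox 1 or 2 or EBd4 Dox 1 (adjusted p 0.058 to 0.067). Aire lost its call without EBd3 IAA 1 or 3, EBd3 Dox 1, EBd4 IAA 2 or EBd4 Dox 1 (adjusted p 0.0638 to 0.102). The EBd4 calls of Myl3 (adjusted p 0.0646 without EBd4 Dox 1), Gpat2 (adjusted p 0.053 to 0.0576 without EBd4 IAA 1 or EBd4 Dox 1) and Morc1 (adjusted p 0.0633 without EBd4 Dox 1) also depended on 1 library.

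Zbtb20, a zinc finger repressor gene that spans 767 kb (chromosome 16, 42875881 to 43642602), fell on day 3 and was not called on day 4. It had 116, 157 and 116 in EBd4 IAA libraries, against 146, 125 and 184 in EBd4 Dox libraries, which overlapped. It had 31.0, 24.9 and 28.7 in EBd3 IAA libraries, against 148, 112 and 97.6 in EBd3 Dox libraries, where every IAA library was below every Dox library. The EBd3 effect of Zbtb20 was -2.03 ± 0.17 (adjusted p = 5.44e-08) and the EBd4 effect -0.22 ± 0.17 (adjusted p = 0.465), a difference of 1.81 ± 0.24. Acta1, the alpha actin of skeletal muscle, fell in EBd3 to 19.0 ± 1.43 with IAA, against 47.9 ± 7.56 with Dox, and had 128 ± 37.5 with IAA and 84.8 ± 23.7 with Dox in EBd4 (difference 1.86 ± 0.30). The EBd4 effect of Acta1 passed the threshold when 1 library was left out (adjusted p 0.0201 to 0.0447 without EBd4 IAA 2 or EBd4 Dox 3).

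Promoters of 5 of the 12 largest higher differences are shown because 5 of the 8 with a RefSeq promoter (GRCm38.p6) hold the letters TATAAA in the 300 bases around their start, against 1 of 8 among the 12 largest lower differences. Each line gives the 60 bases that end just before the RefSeq start, 5′ to 3′ on the gene's strand, with TATAAA in capitals.
Tnnt1: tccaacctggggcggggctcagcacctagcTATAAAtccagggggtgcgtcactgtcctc
Acta1: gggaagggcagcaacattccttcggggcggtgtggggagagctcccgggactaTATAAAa
Aire: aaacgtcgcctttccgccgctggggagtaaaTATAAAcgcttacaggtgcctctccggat
Fos: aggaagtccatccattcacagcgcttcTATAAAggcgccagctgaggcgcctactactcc
Gadd45g: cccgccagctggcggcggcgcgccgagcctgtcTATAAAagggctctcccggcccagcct
The windows are, in the same order, chr7:4515976-4516035 (minus strand), chr8:123894776-123894835 (minus strand), chr10:78043611-78043670 (minus strand), chr12:85473830-85473889 (plus strand) and chr13:51846615-51846674 (plus strand). The choice of these genes was made after their values were seen. Over all called genes with a promoter the share with TATAAA on either strand was near the background: 24 of 236 higher differences (10.2%), 16 of 148 lower ones (10.8%), and 1181 of all 12684 genes tested that had a promoter (9.31%). The E-box letters CACGTG were found in 16.1% of the higher and 15.5% of the lower differences, and in 11.2% of all. CTTTGAA, the core of TCF/LEF sites, was found in 3.39% and 2.70%, against 4.38% of all; TCACACCT, of T-box sites, in 1.27% and 0.676%, against 1.15%; and TGACGTCA, the cAMP response element, in 2.97% and 3.38%, against 3.36%. A match of letters is not a binding site, and a window without one says nothing about the factor.

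Among the lower differences, those of Trh and Porcn kept their calls under all 24 alternatives, as did those of Tex15, Adamts15, Spry4 and Lifr. Trh encodes the precursor of thyrotropin-releasing hormone (chromosome 6, 92242061 to 92244650). It had 4144, 5582 and 6630.2 in EBd4 IAA libraries, against 11090.0, 11074 and 9884 in EBd4 Dox libraries. On day 3, Trh had 3068, 3388 and 2811 in EBd3 IAA libraries, against 3238, 2430.1 and 2953 in EBd3 Dox libraries. With Dox alone Trh was higher in every EBd4 library than in any EBd3 library, and IAA lowered it in EBd4 by 0.99 ± 0.11, while the EBd3 groups overlapped (effect 0.11 ± 0.11; difference -1.10 ± 0.15, adjusted p = 0.000218). Porcn, the enzyme that adds the fatty acid Wnt proteins need for export (chromosome X, 8193848 to 8206525), had 184, 237 and 281 in EBd4 IAA libraries, against 298, 356 and 306 in EBd4 Dox libraries. In EBd3 it had 235, 227 and 221 in EBd3 IAA libraries, against 147, 152 and 136 in EBd3 Dox libraries. Porcn was thus lower with IAA in EBd4 (-0.47 ± 0.12) and higher with IAA in EBd3 (0.65 ± 0.12), with no overlap on either day (difference -1.11 ± 0.16, adjusted p = 0.000477). Its EBd4 call was lost when 1 library was left out (adjusted p 0.064 to 0.0657 without EBd4 IAA 1 or EBd4 Dox 2).

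Spry4, a feedback inhibitor of receptor tyrosine kinase signalling, rose with IAA in EBd3 and overlapped in EBd4. It had 136, 192 and 235 in EBd4 IAA libraries, against 281, 238 and 190.1 in EBd4 Dox libraries. On day 3, Spry4 had 621, 555 and 759 in EBd3 IAA libraries, against 361, 407 and 402 in EBd3 Dox libraries. The effects were -0.35 ± 0.15 in EBd4 and 0.71 ± 0.15 in EBd3 (difference -1.06 ± 0.21, adjusted p = 0.00561). Lifr, the receptor for LIF, and Suox, the mitochondrial sulfite oxidase, also rose in EBd3, by 0.64 ± 0.11 and 0.77 ± 0.14, with EBd4 effects of -0.29 ± 0.11 and -0.15 ± 0.14 that were not called. Grm6, a glutamate receptor known from retinal bipolar cells, Tex15, needed for meiosis in male germ cells, Prickle1, of planar cell polarity, and Adamts15, a secreted metalloprotease, fell in EBd4, by 2.07 ± 0.26, 0.98 ± 0.15, 0.95 ± 0.17 and 0.62 ± 0.15. Their differences were -1.77 ± 0.36, -1.21 ± 0.21, -1.09 ± 0.24 and -1.09 ± 0.22. Magel2 (-1.26 ± 0.33), Cabp7 (-1.63 ± 0.42) and Ehd2 (-1.03 ± 0.27) completed the 12 largest lower differences and were the least steady: they lost their calls under 12, 11 and 12 of the 24 alternatives. The call of Magel2 ended without EBd3 IAA 1 or 3, EBd3 Dox 1, 2 or 3, EBd4 IAA 2 or EBd4 Dox 1 or 2 (adjusted p 0.0612 to 0.128). That of Cabp7 ended without EBd3 IAA 1 or 3, EBd3 Dox 1 or 2, EBd4 IAA 1 or 2 or EBd4 Dox 1 or 2 (adjusted p 0.0666 to 0.134), and that of Ehd2 without EBd3 IAA 1 or 3, EBd3 Dox 1 or 3, EBd4 IAA 2 or EBd4 Dox 1 or 2 (adjusted p 0.0791 to 0.122). DESeq2 did not call the differences of Grm6 and Prickle1. Prickle1 lost its call without EBd4 Dox 1 (adjusted p 0.053) and Suox without EBd4 IAA 2 (adjusted p 0.0534). The EBd4 effects of Spry4 (adjusted p 0.012 to 0.0321 without EBd4 IAA 3 or EBd4 Dox 3) and Lifr (adjusted p 0.032 without EBd4 Dox 3) passed the threshold without 1 library. The EBd4 call of Adamts15 was lost (adjusted p 0.0654 without EBd4 IAA 1), and its EBd3 effect passed (adjusted p 0.00872 to 0.0173 without EBd4 IAA 1 or 3).

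**Figure D2:**
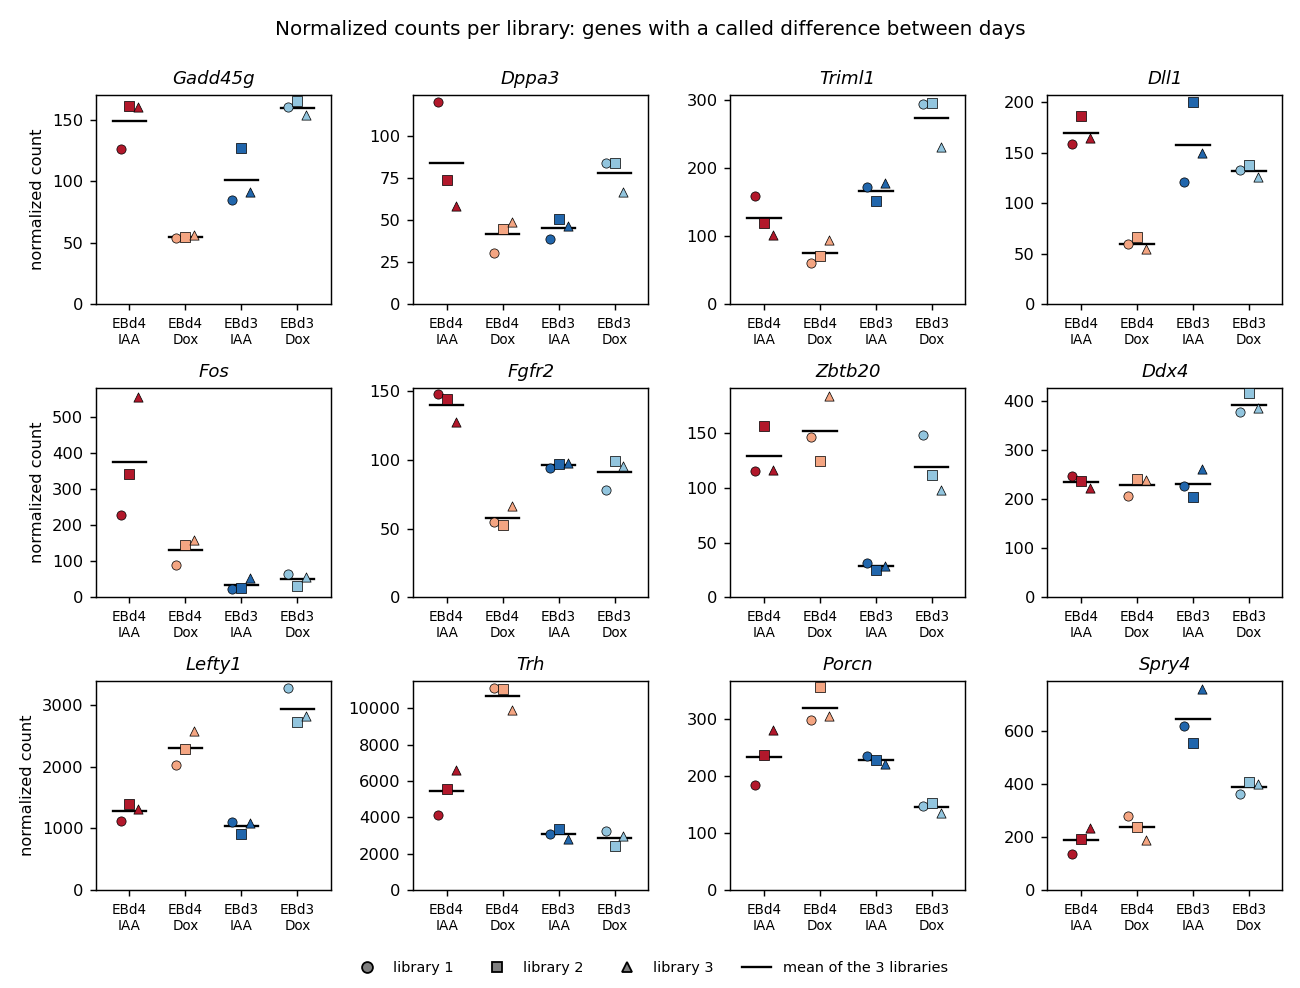
Normalized counts of 12 genes with a called difference in each library of EBd4 IAA, EBd4 Dox, EBd3 IAA and EBd3 Dox (left to right; marker shapes are library numbers, bars the mean of 3 libraries, linear axes from 0). Gadd45g, Dppa3 and Triml1 are higher with IAA on day 4 and lower with IAA on day 3, Zbtb20 is low with IAA on day 3 alone, Ddx4 is higher in the 3 EBd3 Dox libraries than in the other 9, and Porcn and Spry4 are higher with IAA on day 3.

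Of 14 measured genes of the naive pluripotent state, the IAA effect was called higher on day 4 for 5 and lower for none, against 1.40% higher and 0.935% lower of all genes tested. Their median difference was 0.71, against 0.01 over all genes. In EBd4, 9 of the 14 rose and 1 fell, against 5.90% and 6.96% of all genes tested. In EBd3, none rose and 2 fell, against 3.26% and 5.33%. Fgf4, the FGF ligand of the early epiblast, averaged 969 ± 393 with IAA and 469 ± 76.3 with Dox in EBd4, and 2210.2 ± 225 with IAA and 2016 ± 18.0 with Dox in EBd3 (difference 0.85 ± 0.22). Fbxo15, an F-box gene marking embryonic stem cells, had 229, 151 and 122 in EBd4 IAA libraries, against 76.4, 92.2 and 85.6 in EBd4 Dox libraries. In EBd3 it had 203, 210.0 and 234 in EBd3 IAA libraries, against 294, 259.7 and 254 in EBd3 Dox libraries (difference 1.25 ± 0.21, adjusted p = 0.002). Its IAA libraries were all above the Dox libraries on day 4 and all below them on day 3, although the EBd3 effect was not called (-0.32 ± 0.15). Klf2, a Krüppel-like factor of the naive network, rose by 0.95 ± 0.11 in EBd4 (difference 0.69 ± 0.16), and Zfp42, also known as Rex1, by 0.70 ± 0.13 (difference 0.72 ± 0.19). Esrrb, Tbx3, Tfcp2l1 and Nr0b1, other factors of that network, rose in EBd4 by 0.76 ± 0.18, 0.81 ± 0.22, 0.44 ± 0.14 and 0.81 ± 0.24, and their differences of 0.72 ± 0.26, 0.40 ± 0.32, 0.37 ± 0.20 and 0.72 ± 0.34 were not called. Nanog did otherwise: it fell on both days, by 0.33 ± 0.09 in EBd4 and by 0.49 ± 0.09 in EBd3. The count of 5 was 2 without EBd3 IAA 1, EBd3 Dox 1, EBd4 IAA 2 or EBd4 Dox 1, and 3 without EBd3 IAA 2, EBd3 Dox 2 or 3 or EBd4 Dox 2, by DESeq2 and with no filter on low values. The difference of Klf2 was lost without EBd3 IAA 1, EBd3 Dox 1, EBd4 IAA 2 or EBd4 Dox 1 (adjusted p 0.0583 to 0.0791). Zfp42 lost its call by DESeq2 and without EBd3 IAA 1 or 2, EBd3 Dox 1, 2 or 3, EBd4 IAA 2 or EBd4 Dox 1 or 2 (adjusted p 0.0504 to 0.12).

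The core pluripotency list was mixed, with 2 of 12 higher and 2 lower, against 1.40% and 0.935% of all genes tested. Utf1 had 2744, 2619 and 1986 in EBd4 IAA libraries, against 1592, 1772 and 1883 in EBd4 Dox libraries, apart from each other, and its EBd3 groups overlapped at 3038 ± 114 with IAA and 3169.7 ± 47.9 with Dox (difference 0.54 ± 0.11, adjusted p = 0.00778). Dppa5a was also higher (0.33 ± 0.08). Pou5f1, the master regulator Oct4, fell in EBd4 to 4853 ± 444 with IAA, against 5922 ± 344 with Dox, and its EBd3 effect of 0.02 ± 0.05 was not called (difference -0.31 ± 0.07). L1td1, an RNA-binding protein of pluripotent cells, fell likewise (-0.55 ± 0.07; difference -0.41 ± 0.10, not called by DESeq2). Sox2 rose in EBd4 by 0.59 ± 0.07, and its difference of 0.37 ± 0.10 was not called (adjusted p = 0.0531). Of 16 formative and primed epiblast genes, Fgf5, the FGF of the primed epiblast, alone was called. It had 792, 656 and 769 in EBd4 IAA libraries, against 1252, 1145 and 1123 in EBd4 Dox libraries, with no overlap. Its EBd3 effect was -0.10 ± 0.07, not called (difference -0.57 ± 0.10, adjusted p = 0.00274). The 4 core calls were 1 without EBd3 IAA 1, EBd3 Dox 1 or 2 or EBd4 Dox 1, and 2 without EBd4 IAA 2 or EBd4 Dox 2; Utf1 kept its call under all 24 alternatives, and Fgf5 did too. The epiblast count was 2 without EBd4 IAA 1 and 3 without EBd4 IAA 3 or EBd4 Dox 3.

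Of 17 germline genes, 6 were called higher and none lower, with a median difference of 0.73, against 1.40% higher, 0.935% lower and a median of 0.01 over all genes. Ddx4, the germ cell RNA helicase also called Vasa (chromosome 13, 112598333 to 112652475), had 246, 237 and 222 in EBd4 IAA libraries, against 206, 240.5 and 239 in EBd4 Dox libraries. It had 227, 204 and 262 in EBd3 IAA libraries, against 378, 417 and 385 in EBd3 Dox libraries. Its day 4 groups overlapped and its EBd3 IAA libraries were all below the Dox libraries: the EBd3 effect was -0.77 ± 0.10 and the EBd4 effect 0.04 ± 0.10 (difference 0.81 ± 0.13, adjusted p = 0.00153). Sycp3, a component of the synaptonemal complex, rose in EBd4 instead, with 171, 142 and 145 in EBd4 IAA libraries, against 84.0, 97.2 and 106 in EBd4 Dox libraries and a difference of 0.93 ± 0.17 (adjusted p = 0.00366). Mael, of the piRNA pathway, Tex19.1, which restrains retrotransposons, and Zcwpw1, a histone reader of meiosis, had differences of 0.73 ± 0.19, 0.88 ± 0.23 and 0.57 ± 0.14, and the list holds Dppa3 as well. The count was 3 without EBd3 IAA 1, EBd3 Dox 1, 2 or 3 or EBd4 IAA 2. The call of Zcwpw1 was lost without EBd3 IAA 1 or 3, EBd3 Dox 1, 2 or 3, EBd4 IAA 1 or 2 or EBd4 Dox 1 (adjusted p 0.0525 to 0.0962).

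Genes of the FGF and ERK pathway were called in both directions. Of 18 measured, 2 were higher (Fgfr2 and Fgf4) and 6 lower (Il17rd, Dusp6, Etv1, Spry4, Etv4 and Spry2), with a median difference of -0.29. Over all genes tested, 1.40% were higher and 0.935% lower, with a median of 0.01. Fgfr2, an FGF receptor, had 148, 144 and 127 in EBd4 IAA libraries, against 54.8, 52.3 and 66.7 in EBd4 Dox libraries. On day 3, Fgfr2 had 94.2, 96.9 and 97.7 in EBd3 IAA libraries, against 78.4, 99.0 and 95.5 in EBd3 Dox libraries. It rose in EBd4 by 1.26 ± 0.14 with no overlap and did not pass the test in EBd3 (0.09 ± 0.14; difference 1.17 ± 0.20, adjusted p = 0.00179). The 6 lower genes are all feedback genes or ETS factors that FGF and ERK signalling induces. Il17rd, the membrane inhibitor Sef, had 1532, 1850.5 and 2085 in EBd4 IAA libraries, against 3329.9, 3095 and 2840.2 in EBd4 Dox libraries, and its EBd3 effect was -0.15 ± 0.07 (difference -0.61 ± 0.10, adjusted p = 0.00201). Dusp6, a phosphatase that inactivates ERK, was lower with IAA in EBd4 (-0.32 ± 0.06) and had an uncalled effect of 0.16 ± 0.06 in EBd3 (difference -0.49 ± 0.08). The ETS factors Etv1 and Etv4 fell in EBd4 by 0.63 ± 0.08 and 0.70 ± 0.15 (differences -0.56 ± 0.11 and -0.86 ± 0.21), and Spry2 by 0.40 ± 0.10 (difference -0.54 ± 0.14). Dusp4, another ERK phosphatase, rose on both days (0.91 ± 0.11 and 1.13 ± 0.11), and Fgfr1 had effects of 0.03 ± 0.06 and 0.11 ± 0.06. The 8 calls were 5 without EBd3 IAA 1, EBd3 Dox 1 or 2, EBd4 IAA 2 or EBd4 Dox 1 or 2, by DESeq2, and with the replicate number as a block within the day. The call of Dusp6 was lost when all 24 libraries were fitted together.

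Of 17 genes of the Nodal pathway, 7 fell with IAA in EBd4 and 7 in EBd3, and 3 were called for the difference, all of them falling less on day 4. Of all genes tested, 6.96% fell in EBd4, 5.33% fell in EBd3 and 1.40% had a higher difference. Lefty1, a secreted inhibitor that Nodal signalling induces (chromosome 1, 180935022 to 180938400), had 1129, 1395 and 1308 in EBd4 IAA libraries, against 2032, 2279 and 2586 in EBd4 Dox libraries. On day 3, Lefty1 had 1106, 909.5 and 1083 in EBd3 IAA libraries, against 3276, 2724 and 2819.6 in EBd3 Dox libraries. Every IAA library was below every Dox library on both days, with effects of -0.85 ± 0.08 in EBd4 and -1.51 ± 0.08 in EBd3 (difference 0.66 ± 0.12, adjusted p = 0.00323). In IAA libraries Lefty1 was slightly higher on day 4, and in Dox libraries it was lower on day 4 than on day 3. Gdf3, a TGF-beta family ligand, fell by 0.65 ± 0.13 in EBd4 and by 1.40 ± 0.13 in EBd3 (difference 0.75 ± 0.18). The differences of Nodal itself and of Lefty2 were not called: Nodal fell by 0.91 ± 0.11 in EBd4 and 0.77 ± 0.11 in EBd3 (difference -0.14 ± 0.15, adjusted p = 0.734), and Lefty2 fell by 1.35 ± 0.11 in EBd4 and fell by 1.16 ± 0.11 in EBd3 (difference -0.19 ± 0.15, adjusted p = 0.581). Tdgf1, the Nodal co-receptor Cripto, fell by 0.93 ± 0.12 and 0.54 ± 0.12. Lefty1 kept its call under all 24 alternatives. The call of Gdf3 was lost without EBd3 IAA 1, EBd3 Dox 1, 2 or 3, EBd4 IAA 2 or EBd4 Dox 1 or 2 (adjusted p 0.0541 to 0.0939). The count of 3 was 1, Lefty1, without EBd3 IAA 1, EBd3 Dox 1 or 2, EBd4 IAA 2 or EBd4 Dox 1 or 2.

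Of 22 Wnt pathway genes, Porcn and Axin2 were lower and Tcf7l1 was higher, with a median difference of -0.49. Over all genes tested, 0.935% were lower and 1.40% higher, with a median of 0.01. Tcf7l1, the repressor of Wnt targets in stem cells, had 751, 794 and 708 in EBd4 IAA libraries, against 551, 609 and 601 in EBd4 Dox libraries, and its EBd3 groups overlapped (-0.08 ± 0.06; difference 0.43 ± 0.09, adjusted p = 0.00891). Axin2, a target and inhibitor of Wnt signalling, had 253, 339 and 479 in EBd4 IAA libraries, against 699, 613 and 495 in EBd4 Dox libraries. In EBd3 it had 185, 170.2 and 153 in EBd3 IAA libraries, against 158, 161 and 181 in EBd3 Dox libraries (difference -0.81 ± 0.21, adjusted p = 0.0419). The Axin2 call was lost under 15 of 24 alternatives, with an adjusted p 0.0528 to 0.14 without EBd3 IAA 1 or 2, EBd3 Dox 1, 2 or 3, EBd4 IAA 1 or 2 or EBd4 Dox 1 or 2. Wnt3, Wnt5b and Wnt8a, the Wnt ligands of the streak, had EBd4 effects of -2.09 ± 0.47, -1.46 ± 0.28 and -1.98 ± 0.37, all called. Their differences of -1.24 ± 0.67, -0.78 ± 0.40 and -1.49 ± 0.53 were not called. Wls, which carries Wnt proteins to the membrane, had effects of -0.05 ± 0.07 and -0.13 ± 0.07. Rnf43, which removes Wnt receptors, rose on both days (1.36 ± 0.24 and 0.92 ± 0.24). Without EBd4 IAA 3, 6 of the 22 were called (1 higher and 5 lower) in place of 3. The median difference of the 22 was -0.16 without EBd4 IAA 1, -0.68 without EBd4 IAA 3, -0.29 with a pseudocount of 5, -0.31 by edgeR and -0.30 by DESeq2.

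Primitive streak genes were lower with IAA in EBd4 and spread widely among its libraries. None of the 16 was called for the difference by limma, with a median of -1.04; 5 had an unadjusted p below 0.05, and neither edgeR nor DESeq2 called any. The median was -0.58 without EBd4 IAA 1 and -2.01 without EBd4 IAA 3, and limma called 1 member with a pseudocount of 5, with thinned reads and with all 24 libraries in 1 fit. Of all genes tested, 6.96% fell in EBd4, 5.33% fell in EBd3 and 0.935% had a lower difference. In EBd4, 8 of the 16 fell by limma (T, Eomes, Fgf8, Wnt8a, Wnt3, Foxa2, Gsc and Nodal), and in EBd3, Fgf8 and Nodal did. The EBd4 count was 7 by edgeR, without T, and 3 by DESeq2, without T, Eomes, Wnt3, Foxa2 and Gsc. The EBd3 call of Fgf8 was lost by edgeR, by DESeq2 and with all 24 libraries in 1 fit. T, the brachyury gene of the streak (chromosome 17, 8434423 to 8442496), had 39.8, 322 and 1556 in EBd4 IAA libraries, against 2091, 1602 and 826 in EBd4 Dox libraries. In EBd3 it had 7.74, 8.70 and 14.9 in EBd3 IAA libraries, against 14.2, 6.39 and 12.7 in EBd3 Dox libraries. T was low in all 6 EBd3 libraries, and among EBd4 IAA libraries it ran from far below the Dox libraries in library 1 to within their range in library 3. Its EBd4 effect was -2.36 ± 0.67 (adjusted p = 0.0201) and its difference -2.29 ± 0.95 (adjusted p = 0.219). Eomes, a T-box factor of mesoderm and endoderm, had 67.3, 179 and 519 in EBd4 IAA libraries, against 862, 718 and 385 in EBd4 Dox libraries, again with library 3 inside the Dox range. Foxa2, of endoderm and axial mesoderm, had 1.90, 21.3 and 57.5 in EBd4 IAA libraries, against 152, 167 and 85.6 in EBd4 Dox libraries, and between 0 and 4.97 in the EBd3 libraries.

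The calls in this list depended on library EBd4 IAA 3. Without it, 1503 of the 21388 genes tested fell in EBd4 and 408 were lower for the difference, against 1489 and 200 with it. Of the 16 in that fit, 13 fell in EBd4 and 7 were called lower for the difference. These were T (-3.55, adjusted p = 0.00162), Eomes (-2.64, adjusted p = 5.92e-05), Foxa2 (-3.81, adjusted p = 0.0129) and Evx1 (-3.45, adjusted p = 0.046), with Wnt8a (-2.13, adjusted p = 0.00144), Wnt3 (-1.94, adjusted p = 0.0499) and Fgf8 (-1.55, adjusted p = 0.00693). Without EBd4 Dox 3, 1 was called, Eomes (adjusted p = 0.0256). The EBd4 call of T was lost when another library was left out (adjusted p 0.0755 to 0.117 without EBd4 IAA 1 or EBd4 Dox 1 or 2), as was that of Gsc (adjusted p 0.0519 to 0.0823 without EBd4 IAA 2 or EBd4 Dox 1 or 2). The EBd3 call of Fgf8 was lost as well (adjusted p 0.0589 to 0.0973 without EBd3 IAA 1 or 2 or EBd3 Dox 1, 2 or 3). The summed level of the 16 genes ran from 797 to 4667 in the EBd4 IAA libraries (median 1840.4), from 4162 to 7374 with Dox (median 6538). In EBd3 it ran from 509 to 571 with IAA (median 543) and from 815 to 881 with Dox (median 832). Its IAA range overlapped the Dox range on day 4 and lay below it on day 3.

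**Figure D3:**
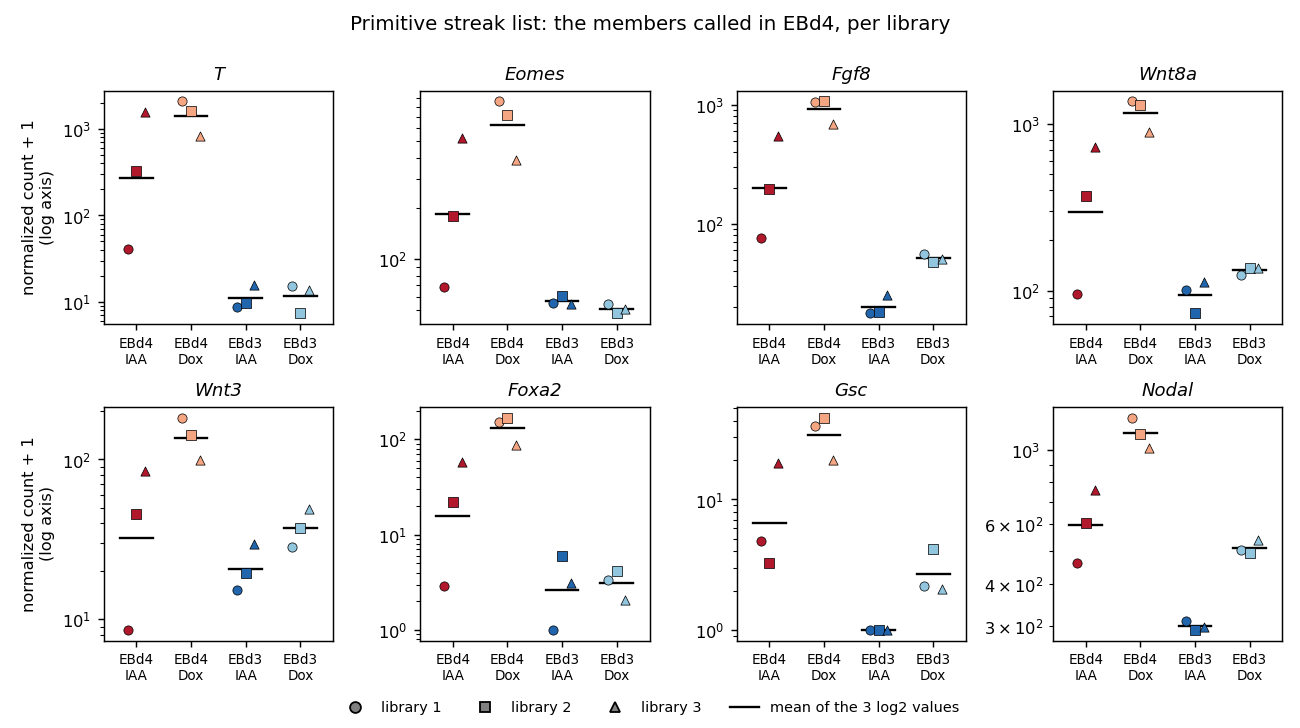
Normalized count + 1 (log axes) of the 8 primitive streak genes that fell with IAA in EBd4, in each library of EBd4 IAA, EBd4 Dox, EBd3 IAA and EBd3 Dox; marker shapes are library numbers and bars the mean of 3 log2 values. Among EBd4 IAA libraries, library 3 (triangle) is the highest for all 8 genes, and for T it reaches 1556, inside the Dox range of 826 to 2091.

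The same order of libraries ran through the called differences. Among the 200 lower differences, EBd4 IAA library 1 was the lowest and library 3 the highest of its group for 97 genes (48.5%), against 21.2% of all genes tested. Among the 299 higher differences the order was turned round for 131 (43.8%), against 17.9%. The EBd4 Dox libraries ran the other way: library 1 was the highest and library 3 the lowest for 110 of the 200 lower differences (55%, against 18.6% of all). It was the lowest and library 3 the highest for 140 of the 299 higher ones (46.8%, against 17.5%). What sets these libraries apart was not tested.

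Dll1, a ligand of Notch (chromosome 17, 15367354 to 15376872), had 158, 186 and 165 in EBd4 IAA libraries, against 59.8, 66.0 and 54.1 in EBd4 Dox libraries. On day 3, Dll1 had 121, 200.0 and 149.7 in EBd3 IAA libraries, against 133, 137 and 126 in EBd3 Dox libraries. It rose in EBd4 by 1.48 ± 0.14 with no overlap, and its EBd3 groups overlapped (difference 1.27 ± 0.20, adjusted p = 0.0012). Rbpj, the DNA-binding partner of Notch, was the other of 18 Notch genes called (0.40 ± 0.10), and Hes1, a Notch target, had effects of -0.15 ± 0.12 and 0.01 ± 0.12. Of 16 immediate early genes, Fos, Jun (1.07 ± 0.19) and Jund (0.43 ± 0.09) were higher, while Egr1 (0.43 ± 0.25) and Ier2 (0.00 ± 0.09) were not called. Beside the list counts of this paragraph, 1.40% of all genes tested were higher and 0.935% lower. Fibronectin (Fn1) had 4002, 3644 and 3408 in EBd4 IAA libraries, against 2476, 2580.5 and 2576 in EBd4 Dox libraries, apart from each other, and an EBd3 effect of -0.01 ± 0.05 (difference 0.54 ± 0.07, adjusted p = 0.000115). Sparc and Col18a1, of the extracellular matrix, had differences of 0.39 ± 0.08 and 0.41 ± 0.08, and the matrix list held 5 higher and 1 lower of 23. The epithelial genes Cldn4, of tight junctions, and Krt18, a keratin, rose in EBd4 by 0.94 ± 0.12 and 0.94 ± 0.12 (differences 0.98 ± 0.17 and 0.79 ± 0.18), and Vim, the filament of mesenchymal cells, fell by 0.38 ± 0.11 (difference -0.66 ± 0.16). Of 22 genes listed for the transition between epithelial and mesenchymal states, 3 were higher and 1 lower, with a median difference of 0.02. In EBd4, 6 of the 22 rose and 4 fell, against 5.90% and 6.96% of all genes tested. Without EBd4 IAA 3, 4 were higher and 3 lower, and 2 were called without EBd3 Dox 1 or EBd4 Dox 1 or 2. Epha1, an ephrin receptor, was lower (-0.87 ± 0.16), and Esco2, which acetylates cohesin, was higher (0.61 ± 0.08). Of 30 axon guidance genes 2 were lower and none higher, and of 14 cohesin genes 1 was higher and none lower. Without EBd4 IAA 3, 4 of the 30 were called lower.

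Several of these calls rested on single libraries. Rbpj lost its call without EBd3 IAA 1 or 3, EBd3 Dox 1 or 2, EBd4 IAA 2 or EBd4 Dox 1 or 2 (adjusted p 0.051 to 0.096), and Jund without EBd3 IAA 1, EBd3 Dox 3 or EBd4 IAA 2 (adjusted p 0.0517 to 0.0606). Krt18 lost it without EBd3 Dox 1 or EBd4 Dox 1 or 2 (adjusted p 0.051 to 0.0757), and Vim without EBd3 IAA 1 or 3, EBd3 Dox 1, EBd4 IAA 2 or EBd4 Dox 1 or 2 (adjusted p 0.0509 to 0.109). The fall of Vim in EBd4 was lost by DESeq2 and when 1 library was left out (adjusted p 0.0507 to 0.148 without EBd4 IAA 1 or 2 or EBd4 Dox 1 or 2). DESeq2 did not call the difference of Krt18. The matrix count of 6 was 3 without EBd3 Dox 1, 2 or 3, EBd4 IAA 2 or EBd4 Dox 1 or 2. The Notch count of 2 was 4 without EBd4 Dox 3 and 1 without EBd3 IAA 1 or 3, EBd3 Dox 1 or 2, EBd4 IAA 2 or EBd4 Dox 1 or 2, and the immediate early count of 3 was 5 without EBd4 IAA 1. Fos, Jun, Dll1, Fn1, Sparc, Col18a1, Cldn4, Epha1 and Esco2 kept theirs under all 24 alternatives.

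Markers of cell types were read in the same libraries. The stem cell genes Pou5f1 and Sox2 were at 4371 or more and at 699 or more normalized counts in every library. Sox17 of endoderm was at 0 in all 3 EBd4 IAA libraries, between 0 and 2.52 in EBd4 Dox, between 1.24 and 4.25 in EBd3 IAA and between 3.18 and 7.45 in EBd3 Dox, and Elf5 of trophoblast was at 0 in all but 1 library. The neural gene Pax6 was at 215 ± 77.3 with IAA and 117 ± 12.7 with Dox in EBd4 (difference 0.81 ± 0.22, a call lost under 17 of 24 alternatives). Sox1, also neural, was between 40.6 and 106 with IAA and 38.2 and 57.9 with Dox in EBd4, where the groups overlapped. The 20 listed neuroectoderm genes summed to 6218 to 6719.5 with IAA and 6753 to 7452 with Dox in EBd4. In EBd3 they summed to 6219 to 6611.5 with IAA and 6019 to 6071 with Dox. Of the 20, 1 was called higher and none lower, with a median difference of -0.05 and a median EBd4 effect of 0.24. Beside the list counts of this paragraph, 1.40% of all genes tested were higher and 0.935% lower. Among fibroblast genes, Col1a1 had medians of 14.2 with IAA and 15.0 with Dox in EBd4, and of 10.3 with IAA and 11.7 with Dox in EBd3. Dcn was between 5.69 and 8.95 in EBd4 IAA, 1.27 and 9.97 in EBd4 Dox, 8.49 and 11.2 in EBd3 IAA, and 23.3 and 38.0 in EBd3 Dox. The 11 listed fibroblast genes summed to 487 to 700.3 with IAA and 383 to 587 with Dox in EBd4, and to 288 to 394 with IAA and 358 to 448 with Dox in EBd3. The 8 of them that passed the filter on low values had median effects of -0.23 in EBd4 and -0.36 in EBd3. Tfap2c, of the trophoblast list and also of germ cells, was between 58.2 and 74.9 with IAA and 25.5 and 48.6 with Dox in EBd4, and between 19.9 and 37.4 with IAA and 21.3 and 22.3 with Dox in EBd3. The 12 listed trophoblast genes summed to 447 to 886 with IAA and 674 to 1145 with Dox in EBd4, and to 332 to 349 with IAA and 337 to 377 with Dox in EBd3. The 10 of them that passed the filter on low values had median effects of 0.04 in EBd4 and 0.02 in EBd3. The 18 listed primitive endoderm genes summed to 14403 to 15758 with IAA and 11331 to 12422 with Dox in EBd4, and to 9618 to 10219 with IAA and 8674 to 8787 with Dox in EBd3. Of the 15 of them that passed the filter on low values, 2 were higher and 1 lower, a count that was 1 when any 1 of 9 libraries was left out. The median effects of the 15 were -0.11 in EBd4 and -0.19 in EBd3, below 0 although the sums were higher with IAA. A sum follows its most abundant members. The part of a shift in cell types in the differences was not tested.

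Of 27 genes of glycolysis and the response to low oxygen, Eno2 and P4ha2 were higher (0.63 ± 0.16 and 0.53 ± 0.13) and Eno1 was lower (-0.31 ± 0.07). Of all genes tested, 1.40% were higher and 0.935% lower. Eno1 and Eno2 are enolases of glycolysis, and P4ha2 hydroxylates collagen. Eno1 fell in EBd4 to 24943 ± 2565 with IAA, against 28772 ± 1168 with Dox, and its EBd3 means were 23288 ± 899 with IAA and 21788 ± 368 with Dox. Hspa5, the main chaperone of the endoplasmic reticulum, rose in EBd3 by 0.20 ± 0.05 and had an EBd4 effect of -0.09 ± 0.05 (difference -0.29 ± 0.06). Of 19 cell cycle genes, Ccnb1, a mitotic cyclin, was higher (0.19 ± 0.05) and Ccnd1, a G1 cyclin, lower (-0.35 ± 0.09). Of the 24 alternatives, 3 ended the call of Eno1, 9 that of Eno2, 8 that of P4ha2, 2 that of Hspa5, 12 that of Ccnb1 and 11 that of Ccnd1. The low oxygen count of 3 was between 0 and 1 without EBd3 IAA 1 or 3, EBd3 Dox 1, 2 or 3, EBd4 IAA 2 or EBd4 Dox 1 or 2, and 5 or 6 without EBd3 IAA 2, EBd4 IAA 3 or EBd4 Dox 3. Of 22 mesoderm genes none was called by limma, edgeR or DESeq2, and 4 had an unadjusted p below 0.05.

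For many genes the effect was alike on both days. Among genes called on both days, 256 had a 95% interval of the difference within -0.3 to 0.3 (125 rose and 131 fell). Ftl1, the ferritin light chain, had 14605, 15207 and 13353 in EBd4 IAA libraries, against 8957, 8709.5 and 10166 in EBd4 Dox libraries. On day 3, Ftl1 had 12997, 13329 and 12431 in EBd3 IAA libraries, against 9249, 8798 and 9144 in EBd3 Dox libraries. It was higher with IAA in every library of both days, by 0.63 ± 0.05 and 0.51 ± 0.05 (difference 0.12 ± 0.07). Rogdi and Abca7 rose by 0.59 ± 0.08 and 0.51 ± 0.09 in EBd4 and by 0.57 ± 0.08 and 0.53 ± 0.09 in EBd3. Ptbp2, a splicing regulator, Irf1, an interferon regulatory factor, and Mpdz fell by 0.67 ± 0.05, 0.58 ± 0.09 and 0.52 ± 0.07 in EBd4 and by 0.56 ± 0.05, 0.57 ± 0.09 and 0.55 ± 0.07 in EBd3. Reads of Ftl1 may be shared with its processed pseudogenes.

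Cholesterol synthesis genes fell on both days, 15 of 24 in EBd4 and 10 of 24 in EBd3, against 6.96% and 5.33% of all genes. Of the 24, 1 was called for the difference, Insig1, against 1.40% higher over all genes tested. Its difference was 0.50 ± 0.13, a call lost under 14 of 24 alternatives. Hmgcs1, an early enzyme of the pathway, fell by 0.47 ± 0.07 and 0.51 ± 0.07, and Nsdhl, a late one, by 0.54 ± 0.08 and 0.68 ± 0.08. The BET genes had no called difference (1 of 4 had an unadjusted p below 0.05, and edgeR and DESeq2 called none). Brd2 RNA had 3795, 4463 and 4387 in EBd4 IAA libraries, against 3057, 3126 and 2862 in EBd4 Dox libraries. On day 3, Brd2 had 6033, 5643 and 5619 in EBd3 IAA libraries, against 4128, 4552 and 4582 in EBd3 Dox libraries. It was higher with IAA on both days (0.48 ± 0.05 and 0.38 ± 0.05; difference 0.10 ± 0.08, adjusted p = 0.585). The degron acts on the protein, so this RNA does not check the depletion. Hexim1, the inhibitor of the elongation factor P-TEFb, rose on both days (0.54 ± 0.08 and 0.66 ± 0.08). Larp7, which holds the 7SK RNA that binds Hexim1, fell on both, by 0.75 ± 0.06 and 0.40 ± 0.06. Its difference was -0.35 ± 0.08, a call lost without EBd3 IAA 1 or 3, EBd3 Dox 1 or 2, EBd4 IAA 2 or EBd4 Dox 1 (adjusted p 0.0566 to 0.0864).

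Among targets of the aryl hydrocarbon receptor, Cyp1b1 rose on both days (2.22 ± 0.34 and 1.64 ± 0.34). Tiparp was the 1 of 9 called for the difference (0.38 ± 0.09), against 1.40% higher and 0.935% lower of all genes tested. Its call was lost without EBd3 IAA 1 or 3, EBd3 Dox 2 or 3, EBd4 IAA 2 or EBd4 Dox 1 (adjusted p 0.0513 to 0.0856). Of 24 genes of the ATF4 stress response none was called for the difference by limma, edgeR or DESeq2, and 5 had an unadjusted p below 0.05. With limma, 3 were called without EBd4 IAA 1, 2 without EBd3 IAA 2, and 1 without EBd4 IAA 3 or EBd4 Dox 3. Atf5, a transcription factor of that response, rose on both days (0.54 ± 0.11 and 0.78 ± 0.11). The cytosolic ribosomal protein genes had none of 28 called by any of the 3 tools (4 at an unadjusted p below 0.05), with a median difference of 0.00. Of 18 BMP pathway genes none was called by the 3 tools, and 7 had an unadjusted p below 0.05. Without EBd4 IAA 3, 5 were called lower, and without EBd4 Dox 3, 1 was. Of 22 p53 targets likewise none was called and 7 had an unadjusted p below 0.05. With limma 4 were called higher without EBd3 IAA 3 and 2 without EBd4 IAA 3.

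Genes of long genomic span took a large part of the higher differences. Of the 2239 genes tested that span over 100 kb, 391 (17.5%) fell in EBd4 and 573 (25.6%) in EBd3, against 6.96% and 5.33% of all genes, and 228 fell on both days, which is 58.3% of the falls in EBd4 and 39.8% of those in EBd3. Their effect was higher on day 4 for 101 (4.51%) and lower for 11 (0.491%). The share of higher differences was 0.726% of genes under 10 kb, 1.08% of those of 10 to 30 kb and 1.57% of those of 30 to 100 kb. Of the 101 long genes, 53 fell in EBd3 alone, 13 on both days, 6 fell in EBd3 and rose in EBd4, 25 rose in EBd4 alone and 4 had no call within a day. Among the 5347 genes of the highest level class, 61 of 595 long genes were higher (10.3%), against 2.05% to 3.19% in the shorter classes.

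Zbtb20 and Morc1 are among the long genes. Med12l, a Mediator subunit gene spanning 313 kb, had 122, 145 and 104 in EBd4 IAA libraries, against 98.1, 98.4 and 116 in EBd4 Dox libraries, which overlapped. On day 3, Med12l had 60.6, 36.0 and 64.8 in EBd3 IAA libraries, against 103, 104 and 101 in EBd3 Dox libraries. Every EBd3 IAA library was lower (EBd3 effect -0.97 ± 0.18; difference 1.20 ± 0.25, adjusted p = 0.00891). Ptprt, a receptor phosphatase gene of 1139 kb, fell on both days, by 1.21 ± 0.27 in EBd4 and 2.66 ± 0.27 in EBd3 (difference 1.44 ± 0.38, a call lost under 14 of 24 alternatives). Tex14, needed for the bridges between male germ cells, and Platr21, a long noncoding RNA of pluripotent cells, fell in EBd3 by 1.18 ± 0.22 and 0.85 ± 0.20 (differences 1.41 ± 0.31 and 1.40 ± 0.28). The EBd3 call of Platr21 was lost when 1 library was left out (adjusted p 0.0534 to 0.0554 without EBd3 IAA 1 or EBd3 Dox 2), and its EBd4 effect passed the threshold (adjusted p 0.017 to 0.0357 without EBd4 IAA 3 or EBd4 Dox 3). Leaving out 1 library ended the call of Tex14 without EBd3 Dox 1 or EBd4 Dox 1 (adjusted p 0.0571 to 0.0597). Ptprt lost its call without EBd3 IAA 3, EBd3 Dox 1, 2 or 3, EBd4 IAA 2 or 3 or EBd4 Dox 1, 2 or 3 (adjusted p 0.0564 to 0.143). The count of 101 was 183 with all 24 libraries in 1 fit, 158 without EBd4 IAA 3, 56 without EBd4 IAA 2, 42 without EBd4 Dox 1, 55 without EBd4 Dox 2, 55 without EBd3 IAA 1, 47 without EBd3 Dox 1 and 60 without EBd3 Dox 2.

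**Figure D4:**
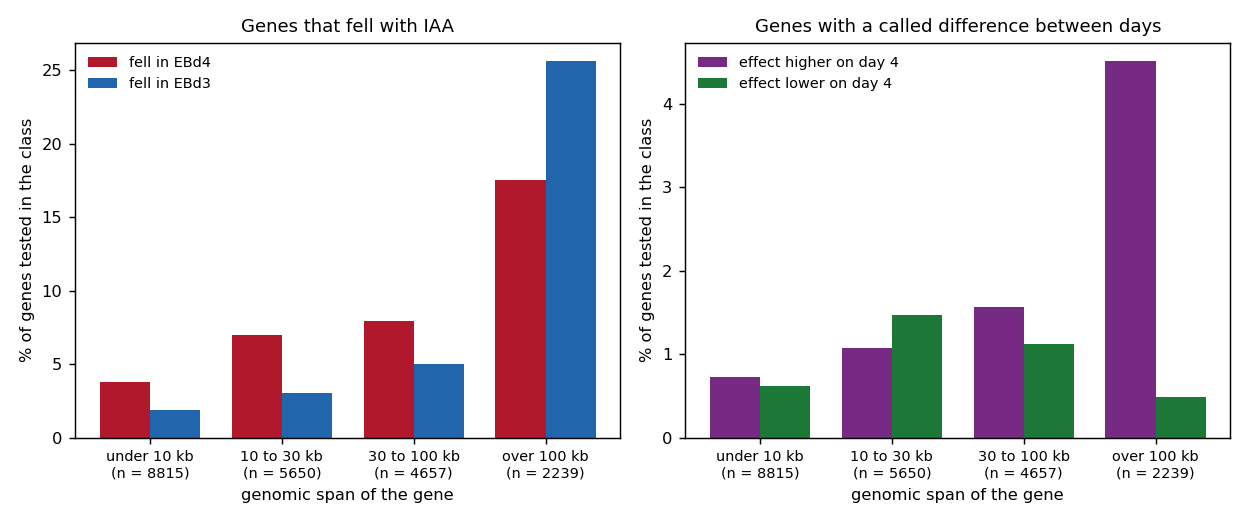
Share of the genes tested in each class of genomic span (n under each class) that fell with IAA in EBd4 and in EBd3 (left), and whose IAA effect was called higher or lower on day 4 (right). Genes over 100 kb fell in 17.5% in EBd4 and 25.6% in EBd3, and their effect was higher on day 4 in 4.51% and lower in 0.491%.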

How the data were processed

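RNA-seq was read from the deposited tables of 12 of the series' 24 samples. Per the submitters' processing notes, STAR 2.5.3a, featureCounts 1.5.2, DESeq2 and mm10 were used; strandedness and annotation version are not given in the sources used here, so overlapping and antisense genes cannot be told apart. The deposited expression values are a signal, gene counts divided by size factors, per the file headers and the values: all came out as whole reads within 1e-06. The authors' deposited log2 fold changes, Wald scores and p-values were not used. The tables hold 35742 genes, of which 14339 have no symbol, and 35652 were found in GENCODE M21. Promoters and their sequences are RefSeq's (GRCm38.p6).

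The main test was limma 3.58.1 (R 4.3.3) with an intensity trend on log2(value + 1), chosen because the deposited values are not raw counts, over genes with a mean of at least 1 in the 12 libraries, with Benjamini-Hochberg adjustment at 0.05. Fold changes on this scale understate the change of low genes. edgeR 4.0.16 (quasi-likelihood) and DESeq2 1.42.0 were run on the recovered read counts, and the steps were tested on simulated data. Named were the 12 largest called differences each way at a level of at least 50, 6 of opposite sign, 4 each way with like effects, and up to 4 per list of 36 lists (698 entries, 660 measured); the primitive streak list, genes over 100 kb and other list members with values were added after values were seen. A few genes that the rule names are not reported here. Members and lists were chosen with earlier results of these data known. The labels do not say whether replicate numbers pair the samples, and the main test did not pair them.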

Additional observations from a re-analysis of the deposited data

Results flagged for a closer look

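The IAA effect differed between EBd4 and EBd3, by the test of the difference itself, for 499 genes. Among genes that rose on day 4 and fell on day 3, the differences on the log2 scale were 2.09 for Gadd45g, 2.06 for AU018091, 1.74 for Dppa3, 1.61 for Tnnt1, 1.45 for Zfy1 and 1.44 for Triml1. These 6 were picked by size among the 34 genes of opposite sign, so their sizes are a description. The fall on day 3 was lost for Gadd45g when all 24 libraries were fitted together, for Tnnt1 by DESeq2, and for Dppa3 with thinned reads. Groups of 3 libraries are too small for a test of single outlying samples.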

How the results depend on the processing

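The 499 called differences were 196 to 867 when 1 library was left out and 1109 when all 24 libraries were fitted together. The 2750 calls in EBd4 were 1669 to 2895 and the 1838 in EBd3 were 1071 to 2157 when 1 library was left out. Each of the other alternatives kept the 3 counts within 1.5 times: TMM (494 differences), edgeR (538), DESeq2 (405), pseudocounts of 0.5 and 5 (466 and 531), no filter (368), a mean of at least 10 (566), thinning (476) and size factors of the 12 libraries. Of the genes, 151 were called for the difference under every alternative (101 higher, 50 lower), and of 75 named genes with a called difference 36 kept it under all 24. No named value that was called changed sign. The median effect over all genes, near 0, did: in EBd4 it was -0.0060 and became 0.0045 with TMM, 0.0023 with the size factors of the 12 libraries, 0.0018 by edgeR and 0.0017 by DESeq2. With a mean of at least 10 the median difference was -0.0085, against 0.011, and the EBd3 median 0.0019, against -0.012. The 1261 rises and 1489 falls in EBd4 were 1054 and 1051 by DESeq2 and 1364 and 1377 with TMM. With the replicate number as a block, 344 differences were called (numbers within a day) or 408 (numbers shared over days). Same-numbered IAA and Dox libraries deviated together with correlations of -0.23, 0.05 and -0.32 in EBd4 and 0.01, -0.09 and 0.16 in EBd3. These gave no sign of pairing by number, but with 3 libraries per group they cannot exclude it. With 3 libraries per group, the counts rest on few samples, and depth limits genes of low level: among the 5347 genes of lowest level 4 were called higher and 1 lower.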
